A study of Caenorhabditis elegans with 8 samples.

Results

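The *fbxa* genes are one of the numbered families of F-box genes of *C. elegans*. An F-box protein holds a substrate in an SCF ubiquitin ligase: its F-box binds a Skp1-related adaptor (SKR in the worm), the adaptor binds a cullin, and the complex attaches ubiquitin to the substrate. *fbxa* proteins join the F-box to an FTH domain, many of their genes lie in clusters of close copies, and many copies are annotated as pseudogenes. The functions of most members are not known. Better known members are *fbxa-75* and *fbxa-158*, which act with the cullin CUL-6 and with SKR adaptors in the response of the intestine to intracellular pathogens. The data below compare this family between *aptf-1(gk794)* mutants and the wild type.

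The family was taken as every gene named *fbxa* with a number, plus F57G4.7, a gene of the same clone as *fbxa-192* (F57G4.8), which gives 223 genes. The array held a probe for 214 of them (294 of its 43603 probes), and 172 could be tested, of 20640 genes or probe names tested in all. Of the 223, 170 are annotated as protein coding and 52 as pseudogenes. F57G4.7 has no entry in the gene table used for names. Of the members that were not tested, 9 had no probe and 42 had too few arrays, under 4 of the 8, with signal well above background for any probe. *fbxa-192*, F57G4.7 and *fbxa-106* (Y59A8B.11) were singled out because of their values in this same comparison, so their values, and whether they were called, are given as a description with no p-value, and nothing is supported with them.

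Expression was measured with 1-colour arrays in whole hermaphrodite embryos at the pretzel stage, when the folded embryo has differentiated tissues. The mutant group carried *aptf-1(gk794)*, a deletion allele of an AP2 transcription factor gene that is needed for the function of the sleep neuron RIS; the study's strain list gives this strain as backcrossed to N2. The other group was the wild type N2. Each genotype had 4 samples of about 3000 individually picked embryos from cultures kept at 21.5 °C with *E. coli* OP50. In RNA of whole embryos, fewer cells of a type and less RNA per cell cannot be told apart.

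The software that read the array images marked 79.4% to 83.1% of the probes on an array as well above background. No spot was saturated, and both slides held 2 arrays of each genotype. Every value below is the log2 of the processed signal minus the 75th percentile of its array, so a level of 0 is the 75th percentile, and every difference is *aptf-1* minus N2 on that log2 scale. The probe for *aptf-1* read -1.35, -1.49, -1.79 and -1.47 in *aptf-1* embryos, against 0.76, 0.26, 0.66 and 0.43 in N2 embryos, which fits the labels on all 8 arrays. Markers of muscle, pharynx, epidermis, intestine and neurons (3 genes each) were well above background on every array, and none of them was called. Of the 4 markers of the RIS neuron, *aptf-1* and *flp-11* were called, with differences of -2.05 ± 0.14 and -1.46 ± 0.10 (SE), while *lim-6* differed by -0.14 ± 0.08 and *unc-25* by -0.12 ± 0.15 (SE). Of the markers of material other than the embryo, the vitellogenin list (*vit-2*, *vit-5*, *vit-6*) summed to between -3.76 and -3.43 in *aptf-1* embryos and between -3.96 and -3.34 in N2 embryos. Of the 3 sperm markers, 1 was well above background on all 4 *aptf-1* arrays and 1 on all 4 N2 arrays, while *spe-11* was on none. The 1 sperm marker with usable values lay between -5.45 and -5.32 in *aptf-1* embryos and between -5.46 and -5.27 in N2 embryos. The oocyte list summed to between -0.68 and -0.32 in *aptf-1* embryos and between -0.56 and 0.27 in N2 embryos, and the early embryo list to between -2.64 and -2.28 in *aptf-1* embryos and between -2.79 and -2.48 in N2 embryos. The part of such material in the results below was not tested.

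*fbxa-192* and F57G4.7 were much lower in *aptf-1* embryos, and *fbxa-106* was moderately lower. *fbxa-192* is a protein-coding gene on chromosome V, and its 3 probes that were well above background on all 8 arrays averaged -4.28, -4.35, -4.46 and -3.945 in *aptf-1* embryos and -2.81, -3.18, -2.93 and -2.92 in N2 embryos. Every *aptf-1* array lay below every N2 array, and the difference over these 3 probes was -1.30 ± 0.13 (SE), a level of 0.407 times that of N2. With 2 dim probes included, as in the comparison of all genes below, it was -1.30 ± 0.15 (SE). The 2 probes of F57G4.7 averaged -3.68, -3.59, -3.75 and -3.45 in *aptf-1* embryos and -2.34, -2.46, -2.31 and -2.39 in N2 embryos. Again the genotypes did not overlap, and the difference was -1.24 ± 0.10 (SE), 0.422 times N2. The 1 probe of *fbxa-106* read -1.92, -2.01, -2.20 and -1.82 in *aptf-1* embryos and -1.41, -1.38, -1.26 and -1.41 in N2 embryos. Its genotypes did not overlap either, with a difference of -0.62 ± 0.11 (SE), 0.649 times N2.

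All 3 genes were lower within each slide. On slides 1 and 2, *fbxa-192*, over its 5 tested probes, differed by -1.13 and -1.47, F57G4.7 by -1.24 and -1.25, and *fbxa-106* by -0.57 and -0.68.

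The probes of *fbxa-192* fell into bright and dim ones. Probe A_12_P157880 read -4.31, -4.21, -4.49 and -4.004 in *aptf-1* embryos and -2.78, -3.15, -2.92 and -2.96 in N2 embryos, a difference of -1.30. Probe A_12_P157881 read -4.38, -4.40, -4.39 and -3.90 in *aptf-1* embryos and -2.83, -3.38, -3.04 and -3.22 in N2 embryos, a difference of -1.15. Probe A_12_P158070 read -4.15, -4.45, -4.49 and -3.93 in *aptf-1* embryos and -2.82, -3.02, -2.84 and -2.60 in N2 embryos, a difference of -1.43. On each of these 3 bright probes every *aptf-1* array was below every N2 array, and all 8 arrays were well above background.

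The dim probes of *fbxa-192* gave a limit at most. Probe A_12_P156745 was well above background on 0 of 4 *aptf-1* arrays and 4 of 4 N2 arrays. On the processed signal it was at least 2.02-fold higher in N2 embryos. This bound sets the N2 mean against the lowest signal that counts as well above background on the *aptf-1* arrays. It holds for the processed signal only, and the normexp background correction described at the end gave a smaller difference for this probe. Probe A_12_P156746 was well above background on 1 of 4 *aptf-1* arrays and 4 of 4 N2 arrays. It read -8.29, -6.75, -8.78 and -9.14 in *aptf-1* embryos and -7.13, -7.72, -7.66 and -7.43 in N2 embryos, so the genotypes overlapped through *aptf-1* replicate 2. The sixth probe, A_12_P108325, was not well above background on any array and was not tested.

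Both probes of F57G4.7 separated the genotypes. Probe A_12_P132315 read -3.85, -3.45, -3.54 and -3.50 in *aptf-1* embryos and -2.25, -2.54, -2.31 and -2.56 in N2 embryos, a difference of -1.17. Probe A_12_P132316 read -3.52, -3.72, -3.96 and -3.40 in *aptf-1* embryos and -2.44, -2.37, -2.32 and -2.21 in N2 embryos, a difference of -1.32.

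**Figure D1:**
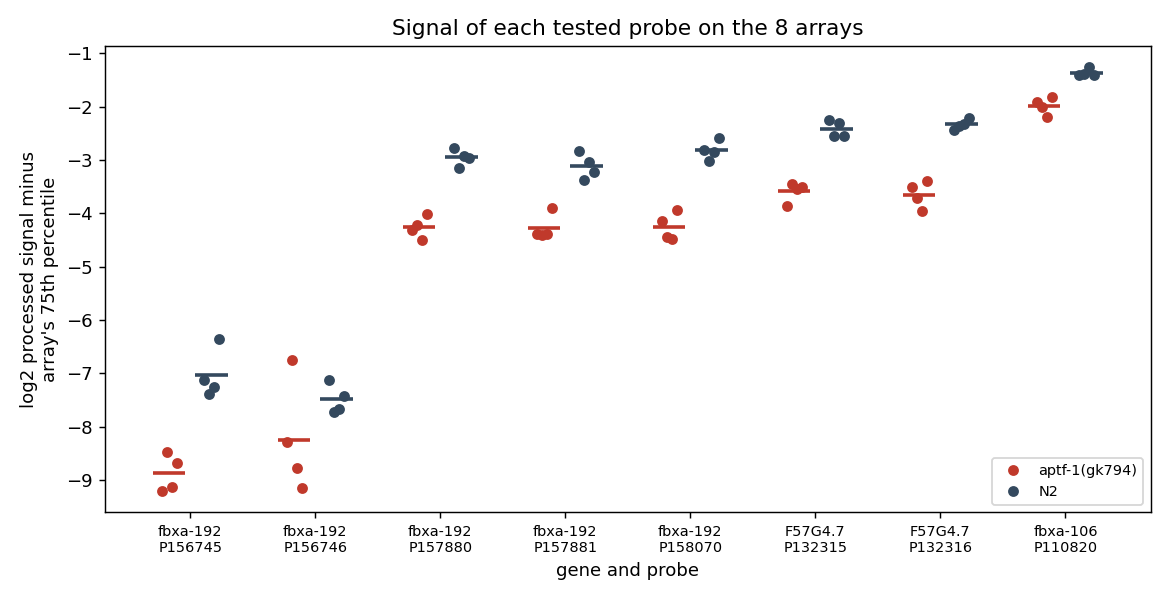
Each point is 1 array and each bar the mean of 4 arrays, for the tested probes of *fbxa-192*, F57G4.7 and *fbxa-106* (x axis), as log2 processed signal minus the 75th percentile of the array (y axis), with *aptf-1(gk794)* in red and N2 in dark blue. On 7 of the 8 probes every *aptf-1* point lies below every N2 point, and on A_12_P156746 of *fbxa-192* they overlap.

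Beyond these genes no member of the family passed the test. A gene was called at an adjusted p under 0.05 (limma, Benjamini-Hochberg over all 20640 genes) together with a fold change of at least 1.5, which 0.0436% of all genes reached (9 genes). In the family 2 of 172 genes were called, *fbxa-192* and F57G4.7, both lower in *aptf-1* embryos, as were 0.0388% of all genes, and no member was called higher, as were 0.00484% of all genes. These are the genes that led to the choice of the family, so nothing is read from this count. F57G4.7 was also called in 22 of 23 alternative fits and *fbxa-192* in 3 of them, and leaving out any single array other than *aptf-1* replicate 2 ended the call of *fbxa-192* (1 called member in place of 2). *fbxa-106* was not called. Among the other 169 genes 0 were called, and 15 had an unadjusted p under 0.05, of which 13 were lower and 2 higher in *aptf-1* embryos. That is 8.88% of the 169 genes, where 3.03% of all genes had an unadjusted p under 0.05, 2.21% lower and 0.824% higher in *aptf-1* embryos. The adjusted p was 0.9998 for each of the 15 genes (limma). On single probes the same test called 0.0504% of all probes and 4 of the family's 234 tested probes, both probes of F57G4.7 and A_12_P157880 and A_12_P158070 of *fbxa-192*. All 4 were lower in *aptf-1* embryos, as were 0.0476% of all probes, and 0 were higher, as were 0.0028% of all probes.

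Most members had genotypes that overlapped. Every *aptf-1* array lay below every N2 array for 9 of 172 members (5.23%), against 1.49% of all genes. Without the 3 genes above it was 6 of 169 (3.55%). These 6 were *fbxa-187*, *fbxa-193*, *fbxa-108*, *fbxa-117*, *fbxa-23* and *fbxa-10*. The reverse, every *aptf-1* array above every N2 array, was seen for 1 member, *fbxa-16*, against 0.795% of all genes. A change of 1.5-fold or more was measured for 7 members, 5 lower and 2 higher in *aptf-1* embryos. Without the 3 genes singled out it was 4 of 169, 2 lower and 2 higher. Of all 20640 genes 363 reached it, 224 lower and 139 higher.

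Outside the 3 genes, the lowest differences belonged to members near the detection limit or with a moderate shift. *fbxa-191*, a pseudogene next to *fbxa-192*, read -7.90, -9.003, -7.67 and -8.72 in *aptf-1* embryos and -8.04, -7.35, -7.49 and -6.87 in N2 embryos, a difference of -0.89 ± 0.35 (SE). It was well above background on 1 of 4 *aptf-1* arrays and 3 of 4 N2 arrays, and its genotypes overlapped. *fbxa-45* had a difference of -0.64 ± 0.40 (SE) and was also well above background on 1 and 3 arrays. *fbxa-73* had a difference of -0.52 ± 0.30 (SE) with *aptf-1* replicate 1 far below the rest.

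The pseudogene *fbxa-187* read -6.11, -5.60, -5.67 and -5.85 in *aptf-1* embryos and -5.38, -5.17, -5.22 and -5.43 in N2 embryos. The genotypes did not overlap, and the difference was -0.51 ± 0.13 (SE), with an adjusted p of 0.9998 (limma). Its neighbour *fbxa-186*, also a pseudogene, had a difference of -0.51 ± 0.20 (SE), and *aptf-1* replicate 4 overlapped the N2 arrays.

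The highest differences came from genes with large spread or near the detection limit. *fbxa-125* read -8.06, -6.96, -7.40 and -6.71 in *aptf-1* embryos and -8.53, -8.56, -8.28 and -7.47 in N2 embryos. Its difference was 0.93 ± 0.34 (SE) with overlapping genotypes, and it was well above background on 3 of 4 *aptf-1* arrays and 1 of 4 N2 arrays. *fbxa-72* read -5.46, -2.79, -3.29 and -4.61 in *aptf-1* embryos and -4.99, -4.81, -4.42 and -5.01 in N2 embryos. Its difference of 0.77 ± 0.53 (SE) rested on *aptf-1* replicates 2 and 3, while replicate 1 was the lowest of all 8 arrays. *fbxa-49* differed by 0.38 ± 0.57 (SE), with *aptf-1* replicate 3 at -4.87 and the other *aptf-1* arrays between -7.52 and -7.33. *fbxa-195* differed by 0.37 ± 0.16 (SE), *fbxa-27* by 0.35 ± 0.21 (SE), *fbxa-178* by 0.33 ± 0.52 (SE), *fbxa-155* by 0.26 ± 0.85 (SE) and *fbxa-218* by 0.25 ± 0.22 (SE), all with overlapping genotypes. Of these, *fbxa-195* was well above background on 4 of 4 *aptf-1* arrays and 2 of 4 N2 arrays, and *fbxa-155* on 2 of 4 arrays of each genotype.

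The members known from the intracellular pathogen response did not pass the test. *fbxa-75* read -6.59, -6.27, -6.80 and -6.31 in *aptf-1* embryos and -6.40, -6.56, -6.55 and -5.69 in N2 embryos, a difference of -0.19 ± 0.22 (SE). *fbxa-158* read -3.82, -3.59, -3.49 and -3.48 in *aptf-1* embryos and -3.97, -3.59, -3.04 and -3.58 in N2 embryos, a difference of -0.05 ± 0.19 (SE). In both genes the genotypes overlapped and the SE was as large as the difference or larger.

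**Figure D2:**
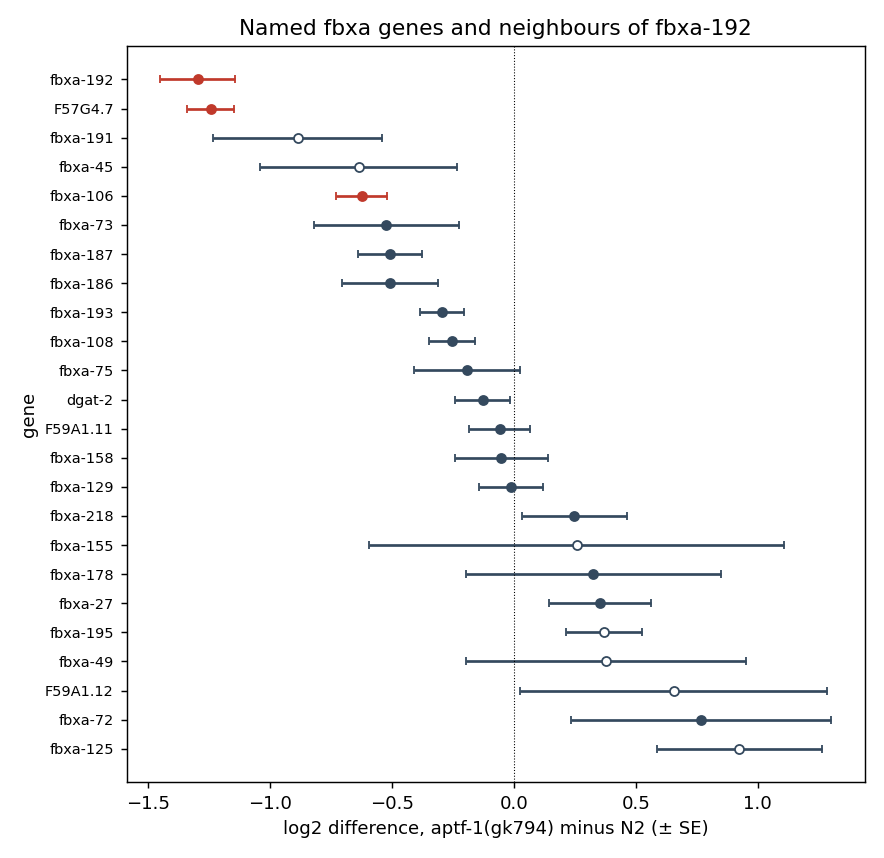
Log2 difference between *aptf-1(gk794)* and N2 with its SE (x axis) for the named *fbxa* genes and the tested neighbours of *fbxa-192* (y axis), with *fbxa-192*, F57G4.7 and *fbxa-106* in red, and open circles for genes that were not well above background on all 8 arrays. *fbxa-192* (5 tested probes) at -1.30 and F57G4.7 at -1.24 stand lowest, and the widest error, 0.85, belongs to *fbxa-155*.

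No tested neighbour of *fbxa-192* in the gene table was called. F57G4.7, which is of the same clone and was called, has no entry in that table. It is therefore not among the neighbours counted here. Of the 10 annotated genes on each side of it, 11 had a probe and 7 could be tested. Of these 7, 0 were called (limma), beside 0.0436% of all genes. An unadjusted p under 0.05 was found for 3, all of them *fbxa* genes, beside 3.03% of all genes. On one side the nearest gene was *fbxa-191*, given above. The coding genes beyond it that had probes, F57G4.10, F57G4.1, Y6G8.8 and Y6G8.6, were not well above background on any array.

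On the other side came *fbxa-193*, *fbxa-129* and *fbxa-108* in this order. *fbxa-193*, a pseudogene, read -2.76, -2.73, -2.92 and -2.73 in *aptf-1* embryos and -2.44, -2.56, -2.56 and -2.40 in N2 embryos, with no overlap and a difference of -0.29 ± 0.09 (SE). The pseudogene *fbxa-129* had a difference of -0.01 ± 0.13 (SE), with all *aptf-1* arrays within the range of the N2 arrays. The protein-coding *fbxa-108* read -1.12, -1.30, -1.38 and -1.11 in *aptf-1* embryos and -1.02, -0.96, -0.97 and -0.94 in N2 embryos, with no overlap and a difference of -0.25 ± 0.09 (SE).

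Next to *fbxa-108* lies *dgat-2*, an acyltransferase gene of lipid synthesis, whose difference was -0.13 ± 0.11 (SE). F59A1.11 followed with -0.06 ± 0.12 (SE) and F59A1.12 with 0.66 ± 0.63 (SE), where *aptf-1* replicate 3 alone was high at -4.38.

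Taken over the family, small negative differences were common. The median difference of the 172 genes was -0.10, with the central span of genes (25th to 75th percentile) from -0.21 to -0.00072, beside a median of -0.016 over all 20640 genes. A difference below 0 was found for 129 of 172 members (75%), beside 54.6% of all genes. Leaving out *fbxa-192*, F57G4.7 and *fbxa-106*, the median was -0.10 and 126 of 169 were below 0. Protein-coding members were below 0 in 103 of 133 cases (77.4%), beside 54.9% of all protein-coding genes tested, and pseudogenes in 25 of 38 cases (65.8%), beside 61.4% of all 816 pseudogenes tested.

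The shift was not equal on all arrays. Each gene's deviation from its own mean over the 8 arrays had a family median of -0.11, 0.018, -0.12 and 0.018 on *aptf-1* replicates 1 to 4 and 0.027, 0.021, 0.089 and 0.069 on N2 replicates 1 to 4. *aptf-1* replicates 1 and 3 were low, while *aptf-1* replicates 2 and 4 lay just under N2 replicate 2. Without the 3 genes singled out, *aptf-1* replicates 2 and 4 were both at 0.020, above N2 replicate 2 at 0.015. Over all genes the same medians ran from -0.034 to 0.0098 on *aptf-1* arrays and from -0.032 to 0.077 on N2 arrays. Within slides the family's median difference was -0.063 on slide 1, with 62.2% of members below 0 and 59% of all genes below 0, and -0.13 on slide 2, with 76.2% and 48.9%. A fit that weights each array by its quality gave a family median of -0.038 with 60.5% of members below 0, beside a median of -0.0027 and 50.8% below 0 over all genes.

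**Figure D3:**
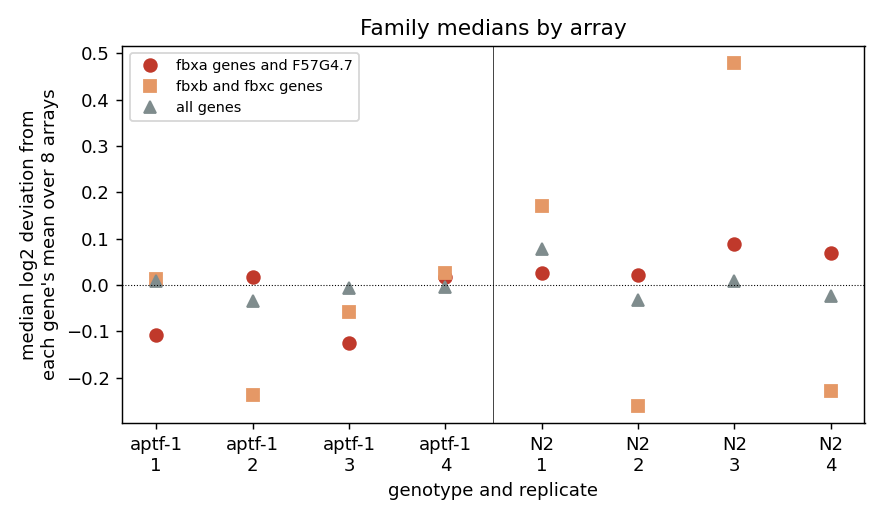
Median over the genes of a list (y axis, log2) of each gene's deviation from its mean over the 8 arrays, for each *aptf-1* array (left) and each N2 array (right), with *fbxa* genes as red circles, *fbxb* and *fbxc* genes as orange squares and all genes as grey triangles. The *fbxa* median is lowest on *aptf-1* replicates 1 and 3, at -0.11 and -0.12, and the *fbxb* and *fbxc* median spans from -0.26 to 0.48 among the N2 arrays alone.

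No gene of the other numbered F-box families passed the test. *fbxb* and *fbxc* proteins carry an F-box with a different partner domain. Of 126 tested *fbxb* and *fbxc* genes 0 were called (limma), beside 0.0436% of all genes. An unadjusted p under 0.05 was found for 4 of them (3.2%), close to the 3.03% of all genes. Their median difference was -0.11 and 69.0% were below 0, beside -0.016 and 54.6% over all genes. Their median SD within a genotype was 0.401, and that of the 84 *fbxb* genes was 0.551, beside 0.199 in the *fbxa* family and 0.214 over all genes.

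No gene of the list of SCF partners passed the test. The list held cullins, SKR adaptors, the RING protein and NEDD8 pathway genes, COP9 signalosome genes and F-box genes of other families, and 47 of its 49 genes were tested. None was called (limma), beside 0.0436% of all genes, and none had an unadjusted p under 0.05, beside 3.03% of all genes. The median difference was 0.014 and 44.7% were below 0, beside -0.016 and 54.6% over all genes. The list's median SD within a genotype was 0.152. For *skr-7*, *skr-8*, *skr-9*, *skr-10*, *skr-14* and *skr-15*, however, the N2 arrays varied widely and the SE lay between 0.89 and 1.03. In these 6 genes only a very large difference could have been called. *cul-1*, the cullin of the canonical SCF complex, differed by -0.09 ± 0.13 (SE), and its adaptor gene *skr-1* by 0.06 ± 0.10 (SE). *cul-6*, the cullin that works with FBXA-75 and FBXA-158, differed by -0.13 ± 0.10 (SE), and the adaptor genes *skr-3*, *skr-4* and *skr-5* by -0.17 ± 0.12, -0.25 ± 0.13 and -0.40 ± 0.26 (SE). The lowest value in the list was that of *skr-11*, -0.72 ± 0.32 (SE), with overlapping genotypes. *fog-2*, an F-box and FTH gene of germline sex determination and a relative of the *fbxa* genes, differed by 0.02 ± 0.10 (SE), and its paralog *ftr-1* by -0.04 ± 0.14 (SE).

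**Figure D4:**
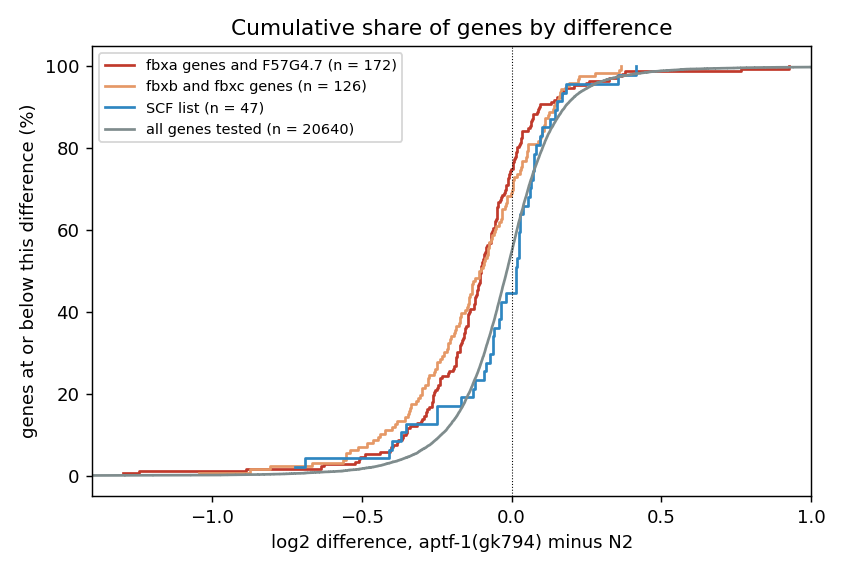
Share of genes (y axis, percent) at or below a given log2 difference between *aptf-1(gk794)* and N2 (x axis), for the 172 *fbxa* genes and F57G4.7 in red, 126 *fbxb* and *fbxc* genes in orange, 47 genes of the SCF list in blue and all 20640 genes in grey. The *fbxa* curve passes 0 at 75%, that of the *fbxb* and *fbxc* genes at 69.0%, the curve of all genes at 54.6% and that of the SCF list at 44.7%.

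No member was detected on every array of one genotype and none of the other, a pattern that was rare over all genes. Of all 19795 genes, 0 showed it for the *aptf-1* arrays and 2 for the N2 arrays. With 1 or more probes well above background as the criterion, 165, 176, 179 and 171 of the 214 members were detected on the *aptf-1* arrays and 168, 169, 179 and 177 on the N2 arrays. On all 8 arrays 161 members were detected (75.2%), beside 81.9% of all 19795 genes, 21 were detected on no array (9.81%), beside 7.96% of all genes, and 32 on some arrays. All 4 *aptf-1* arrays detected 162 members and all 4 N2 arrays 164. Among members annotated as pseudogenes 34 of 48 (70.8%) were detected on all 8 arrays, beside 49.0% of all pseudogenes with a probe, whereas protein-coding members were detected on all 8 arrays in 76.4% of cases, beside 84.4% of all protein-coding genes. A probe of 1 copy may also bind transcripts of a close copy; the probe sequences were not used here, so this was not tested.

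By chromosome, most members lie on chromosome V (92 genes, 70 tested) and chromosome III (73 genes, 58 tested). On chromosome V 74.3% of tested members were below 0, beside 61.6% of all genes there, and on chromosome III 79.3%, beside 53.2%. The median difference was -0.095 on chromosome V and -0.12 on chromosome III. None of the 58 members on chromosome III reached a 1.5-fold change.

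Of the 15 other members with an unadjusted p under 0.05, 10 lie on chromosome V. So do 70 of the 172 tested members, a count that includes *fbxa-192* and *fbxa-106*. Of these 10, 9 were lower in *aptf-1* embryos, on a chromosome where 61.6% of all tested genes were below 0. When the 3970 tested genes of chromosome V were divided by gene order into 10 equal parts, the ninth part, which holds *fbxa-192*, contained 38 tested *fbxa* genes with a median of -0.15, and 33 of them were below 0. The 359 other genes of that part had a median of -0.051 and 60.7% were below 0. In the eighth part, 13 *fbxa* genes had a median of -0.019, with 7 below 0, and in the tenth part 9 had a median of -0.15, with 7 below 0. These divisions, and the runs of genes that follow, were chosen after the values were seen and carry no test.

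Within the ninth part, 6 neighbouring members from *fbxa-185* to *fbxa-134* (*fbxa-185*, *fbxa-186*, *fbxa-187*, *fbxa-188*, *fbxa-189* and *fbxa-134*) were all below 0, between -0.51 and -0.21 with a median of -0.36. The 1 other tested gene among them, the adaptor gene *skr-5*, was at -0.40 ± 0.26 (SE). In the longer run from *fbxa-185* past *fbxa-192* to *fbxa-117*, 21 of 22 tested *fbxa* genes were below 0 with a median of -0.28. These 22 include *fbxa-192* and *fbxa-106*, which were singled out for their values. Of the 96 other tested genes in between, 60 were below 0 with a median of -0.065. *fbxa-117*, a pseudogene, read -6.14, -5.85, -6.01 and -6.13 in *aptf-1* embryos and -5.70, -5.79, -5.63 and -5.66 in N2 embryos, with no overlap and a difference of -0.34 ± 0.10 (SE). Members of the same run also included *fbxa-210* at 0.02 ± 0.08, *fbxa-211* at -0.0044 ± 0.11 and *fbxa-212* at -0.05 ± 0.09 (SE).

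**Figure D5:**
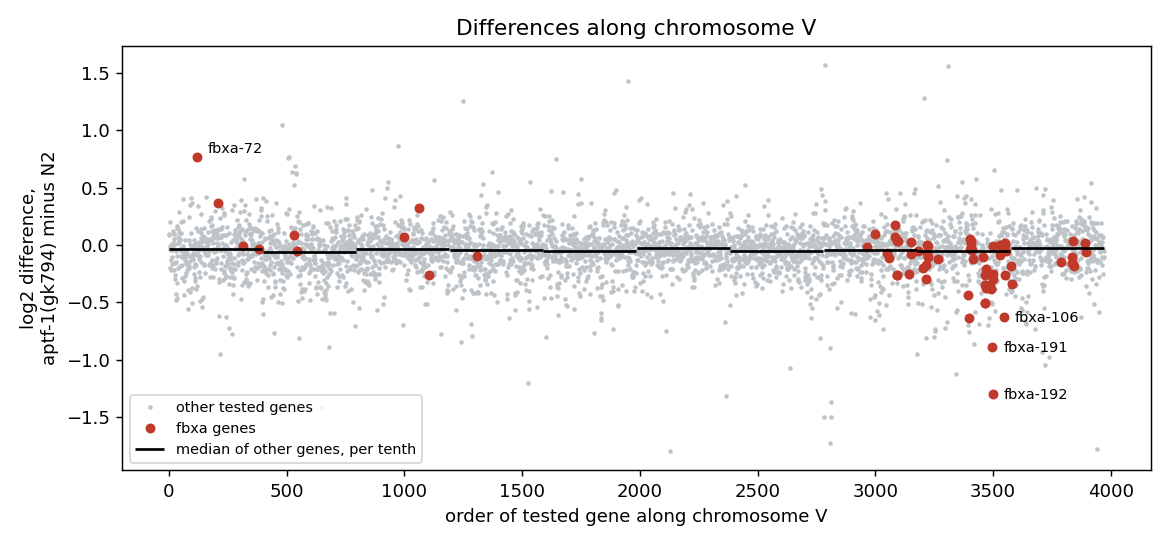
Log2 difference between *aptf-1(gk794)* and N2 (y axis) for the 3970 tested genes of chromosome V in gene order (x axis, order and not distance), with *fbxa* genes as large red points, other genes as small grey points, and black bars for the median of the other genes in each of 10 equal parts. *fbxa-192* at -1.30 is the lowest red point, *fbxa-72* at 0.77 the highest, and the 38 red points of the ninth part have a median of -0.15.

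On other chromosomes the members with the clearest separation had small differences. *fbxa-23*, a pseudogene on chromosome III, read -0.04, -0.24, -0.48 and -0.19 in *aptf-1* embryos and 0.13, 0.11, -0.03 and 0.05 in N2 embryos, a difference of -0.30 ± 0.11 (SE). *fbxa-10*, a protein-coding gene on chromosome III, had a difference of -0.17 ± 0.09 (SE), and *fbxa-16* on the X chromosome was the only member with all *aptf-1* arrays above all N2 arrays, at 0.16 ± 0.10 (SE). The adjusted p of each was 0.9998 (limma).

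For the 38 members with 2 or more tested probes, the median range between probes of a gene was 0.16, and 15 members had probes of both signs. The 5 tested probes of *fbxa-192* ranged over 1.09, the widest range of the 38. Both ends of it are dim probes, which were not well above background on most *aptf-1* arrays. The 3 bright probes of *fbxa-192* ranged over 0.28. All 5 tested probes of *fbxa-192* and both of F57G4.7 were below 0.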

How the data were processed

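The authors deposited Agilent Feature Extraction 10.7.3.1 output for each array, with background-corrected intensity values per spot, median spot and background intensity values, and the scanner's marks for outliers and for signal over background. A deposited table of log2 values states no scale. Its columns have nearly the same distribution on each array, and it served as an alternative. Of the design's 43603 probes, 34268 were named through a gene table of the WBcel235 assembly, which was used for names, biotypes and gene order only, since the design follows an older assembly.

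From 45220 spots per array, 1417 control spots and 62 to 188 outlier spots were left out. Spots of a probe were averaged, the 75th percentile of the array was subtracted, and probes marked well above background on 4 or more of the 8 arrays that had a value in both genotypes were kept (35726). Values of a gene are means over its tested probes. Genotypes were compared with lmFit and eBayes of limma 3.58.1 in R 4.3.3, with Benjamini-Hochberg adjustment over all genes or all probes, after tests on simulated data. Tables and plots were made with Python 3.11.15, pandas 2.3.3, numpy 2.4.6 and matplotlib 3.10.9. The 8 arrays limit the precision. The study's methods call the 4 samples of each genotype biological samples. Whether they came from separate cultures is not stated, and p-values measure only the spread between these samples.

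The members and lists were chosen with earlier results of these data known. The text names *fbxa-192*, F57G4.7, *fbxa-106*, *fbxa-75*, *fbxa-158*, the called members, the 8 members with the lowest and the 8 with the highest difference, and the tested neighbours of *fbxa-192*. Other members named were chosen after their values were seen. The rule also asked for the members nearest to FBXA-192 in protein sequence, which could not be applied here. The normexp alternatives used median spot intensity values. No column of another sample was used.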

Additional observations from a re-analysis of the deposited data

Results flagged for a closer look

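In 4 of the 66 groups of 4 arrays compared, 1 array stood apart from the other 3 by more than the critical gap ratio of Dixon's test, where chance gives about 3.3. In *aptf-1* embryos, *fbxa-49* had a gap ratio of 0.929, with replicate 3 at -4.87 above the others. *fbxa-129* had a gap ratio of 0.882 in *aptf-1* embryos, with replicate 3 at -2.56 below the others. F59A1.12 had a gap ratio of 0.952 in *aptf-1* embryos, with replicate 3 at -4.38 above the others. Probe A_12_P157881 of *fbxa-192* had a gap ratio of 0.961 in *aptf-1* embryos, with replicate 4 at -3.90 above the others and still below every N2 array. Replicate 3 of *aptf-1* is the array in 3 of the 4 cases.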

How the results depend on the processing

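F57G4.7 was called in 22 of 23 alternative fits and *fbxa-192* in 3 of 23 (all 8 arrays well above background, array weights, and without *aptf-1* replicate 2); no other member was called in any of them. The count of called *fbxa* genes, 2, was thus 1 with quantile normalization, median centring, either normexp setting, the deposited log2 values, no filter, a filter on at least 1 array, outlier spots kept, eBayes with trend and robust, a slide block, an equal-variance test per gene without moderation, the median over probes, or an adjusted p under 0.01, and it ran from 1 to 2 when each array was left out in turn. With the replicate number as a block it was 0, as was the count over all genes; the correlations of same-numbered samples were 0.521, 0.284, -0.118 and 0.0905, so the numbers were not taken as pairing the samples. The count of called *fbxa* probes, 4, was 0 with the slide block, the replicate block, the equal-variance test or an adjusted p under 0.01, and ran from 0 to 2 when each array was left out in turn. With array weights the family's median was -0.038 (-0.033 without the 3 genes singled out). The cause was not tested.

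Uncalled members whose sign turned were *fbxa-75* (0.11 with array weights), *fbxa-49* (-0.015 with array weights) and *fbxa-129* (0.014 with quantile normalization, 0.025 and 0.051 with normexp followed by the percentile or by quantiles, 0.013 with the deposited values, 0.027 with array weights). When each array was left out in turn, the differences ran from -0.28 to 0.010 for *fbxa-75*, -0.19 to 0.12 for *fbxa-158*, -0.40 to 0.85 for *fbxa-155*, -0.26 to 0.63 for *fbxa-49*, -0.11 to 0.089 for *fbxa-129*, -0.14 to 0.017 for F59A1.11 and -0.077 to 0.93 for F59A1.12. With normexp the dim probe A_12_P156745 of *fbxa-192* differed by -0.22 or -0.26, and its signal in *aptf-1* embryos was not well above background. The family's median stayed below 0 in all settings tried, and ran from -0.13 to -0.074 when each array was left out in turn.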
